A study of Mus musculus with 12 samples.

Results

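Maml3 and Samd5 are a pair of long mouse genes whose transcripts were crowded with clusters of crosslinked RNA, the short stretches in which reads of a CLIP experiment pile up. They were picked because the table for the protein Rbm38 lists more than 300 clusters in each. A cluster was counted for a gene when its centre lay in the gene body on mm10 and on the gene's strand. By this rule 1560 of the 124941 clusters in the 3 deposited tables belonged to them. Of these, 918 of 49260 came from Rbm38, 335 of 36227 from Puf60 with exon 5 and 307 of 39454 from Puf60 without exon 5. Maml3 (gene 433586) spans chr3:51687320-52105319 and Samd5 (gene 320825) chr10:9262461-9675926, both on the minus strand, so that 5′ positions carry the higher coordinates.

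The study mapped contacts between protein and RNA by iCLIP, in which ultraviolet light links a protein to the RNA it touches, in N2A mouse neuroblastoma cells. The 12 libraries form 3 sets of 3 CLIP libraries and 1 size-matched input, which is RNA cut from the same size range of the gel without immunoprecipitation. The CLIP libraries used a Flag antibody against Rbm38, Puf60 with exon 5 or Puf60 without exon 5, each expressed from a Flp-In transgene under 1 µg/ml doxycycline, and cells received 150 mJ/cm2 of ultraviolet light. Induction lasted 24 h in the CLIP libraries of Rbm38 and of Puf60 without exon 5 and in all inputs, and 48 h in the CLIP libraries of Puf60 with exon 5. Between the Puf60 tables, isoform and length of induction cannot be told apart, and the fold of Puf60 with exon 5 also sets 48 h against 24 h. The labels do not say that the cells expressing each transgene came from several clones or cultures.

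Maml3 encodes a Mastermind-like protein, a coactivator that joins the cleaved Notch receptor and the DNA-binding protein Rbpj on target genes and brings in histone acetyltransferases. Samd5 encodes a protein with a sterile alpha motif (SAM), a small domain through which many signalling proteins bind each other. Rbm38, the product of a gene that p53 activates, binds GU- and AU-rich stretches of RNA and is known for effects on splicing and mRNA stability. Puf60 is a splicing factor that binds pyrimidine tracts upstream of 3′ splice sites. CLIP signal in a long gene can come from the unspliced transcript, whose introns make up most of its length, or from the mRNA. The annotation used here gives gene bodies without exons, so introns, exons and untranslated regions of either gene were not separated.

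Each table holds the authors' own comparison of CLIP with input for each cluster, as a log2 fold and a p-value before and after adjustment. The deposited tables give no value per library, so neither the depth nor the replicates' spread is known, and no test between the proteins was made. A cluster is called listed when it is in a table and enriched when its deposited adjusted p is under 0.05. Neighbouring clusters of 1 transcript are not independent replicates. Among enriched clusters that lay in 1 protein-coding gene with an annotated strand, 94.4% (Rbm38), 93.5% (Puf60 with exon 5) and 93.6% (Puf60 without exon 5) were on that strand.

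Rbm38 clusters were many in both genes, and a larger share of them was enriched in Maml3 than in Samd5. The authors' deposited table for Rbm38 lists 358 clusters in Maml3, of which 166 (46.4%) were enriched. The same table lists 560 clusters in Samd5, of which 145 (25.9%) were enriched. Over the whole table of Rbm38, 51.2% of clusters with a p-value were enriched. Both genes were chosen by their number of listed Rbm38 clusters, so the values of the Rbm38 table are given as a description. The threshold was 300 listed clusters, and Maml3 was the gene just inside it. The genes just outside were Ankrd11 with 295, Efna5 with 292, Lncpint with 291 and Map1b with 277 listed clusters.

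The Puf60 tables were not used to choose the genes, and in both of them most clusters of Maml3 and Samd5 were not enriched. In Maml3 the table of Puf60 with exon 5 lists 75 clusters, 7 of them enriched (9.33%), against 39.3% over its whole table. The table without exon 5 lists 67 clusters in Maml3, 9 of them enriched (13.4%), against 36.2% over its whole table. Samd5 had many more Puf60 clusters than Maml3, but as small an enriched share. It had 260 listed and 24 enriched (9.23%) for Puf60 with exon 5, and 240 listed and 18 enriched (7.50%) for Puf60 without exon 5. Both genes thus stood below the whole-table share for either isoform. A low share was not particular to them among genes with many listed clusters. Efna5 had 11 of 227 enriched with exon 5 and 9 of 163 without it, and Map1b 19 of 185 and 20 of 216. Huwe1 went the other way, with 75 of 123 and 87 of 134.

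Listed clusters covered 5.69% of the Maml3 gene body for Rbm38 (23800 nt), 0.933% for Puf60 with exon 5 (3900 nt) and 0.801% for Puf60 without exon 5 (3350 nt). In Samd5 they covered 9.0% (37200 nt), 3.47% (14350 nt) and 3.27% (13500 nt) for the same proteins. The number listed per 10 kb was 8.56, 1.79 and 1.60 in Maml3 and 13.5, 6.29 and 5.80 in Samd5, in that order. Listed Rbm38 clusters, by whose number the genes were chosen, were more than 2-fold as many as those of either isoform in both genes. The margin was smaller in Samd5. In all, Rbm38 also had more listed clusters, 49260 against 36227 with exon 5 and 39454 without it. The distance between neighbouring Rbm38 clusters had a median of 250 nt in Maml3 and 200 nt in Samd5. For Puf60 it was 1500 nt with exon 5 and 1875 nt without it in Maml3, and 500 nt in Samd5 for both. Most clusters were the smallest possible, 50 nt long: 77.1%, 96.0% and 100% of those in Maml3, and 77.5%, 90.4% and 89.2% of those in Samd5, against 75.4%, 77.3% and 75.2% over the whole tables.

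The proteins also differed in the folds of their clusters. In the authors' deposited table for Rbm38, the log2 fold of the 358 listed Maml3 clusters had a median of 1.16 (quartiles 0.45 and 1.86, range -0.85 to 3.87). The 560 clusters of Samd5 had a median log2 fold of 0.62 (quartiles 0.16 and 1.28, range -1.31 to 2.95) in the same deposited table, whose median over all clusters was 1.04. Samd5 thus held many Rbm38 clusters with a small fold, while the median of Maml3 was near that of the table. In the authors' deposited tables for Puf60 the medians lay below input in both genes. They were -0.85 in Maml3 with and without exon 5, and -0.61 with exon 5 and -0.63 without it in Samd5, against 0.24 and 0.11 over all clusters of those deposited tables. Medians of the other genes most crowded with clusters are not compared here.

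Clusters with more input than CLIP signal, a log2 fold below 0, made up 42 of 358 Maml3 clusters for Rbm38 (11.7%, against 25.4% of its table). They made up 58 of 75 with exon 5 (77.3%, against 43.8% of that table) and 53 of 67 without exon 5 (79.1%, against 47.0% of that table). In Samd5 the same counts were 106 of 560 (18.9%), 190 of 260 (73.1%) and 187 of 240 (77.9%). Below -1, input exceeded CLIP by more than 2-fold. That held for 0 Maml3 and 4 Samd5 clusters of Rbm38 (4.79% of its table), 33 Maml3 and 73 Samd5 clusters of Puf60 with exon 5 (16.4% of its table), and 25 Maml3 and 69 Samd5 clusters of Puf60 without exon 5 (17.4% of its table). Read numbers per cluster are not given in these tables, so how many reads stood behind a fold below 0 is unknown. Many clusters carried exactly the same pair of log2 fold and p-value as another cluster of their table. That was so for 84.9% of the Rbm38 clusters of Maml3 and 84.6% of those of Samd5, against 73.5% over the table. For Puf60 with exon 5 it was 97.3% in Maml3 and 95.4% in Samd5, against 72.9% over the table.

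**Figure D1:**
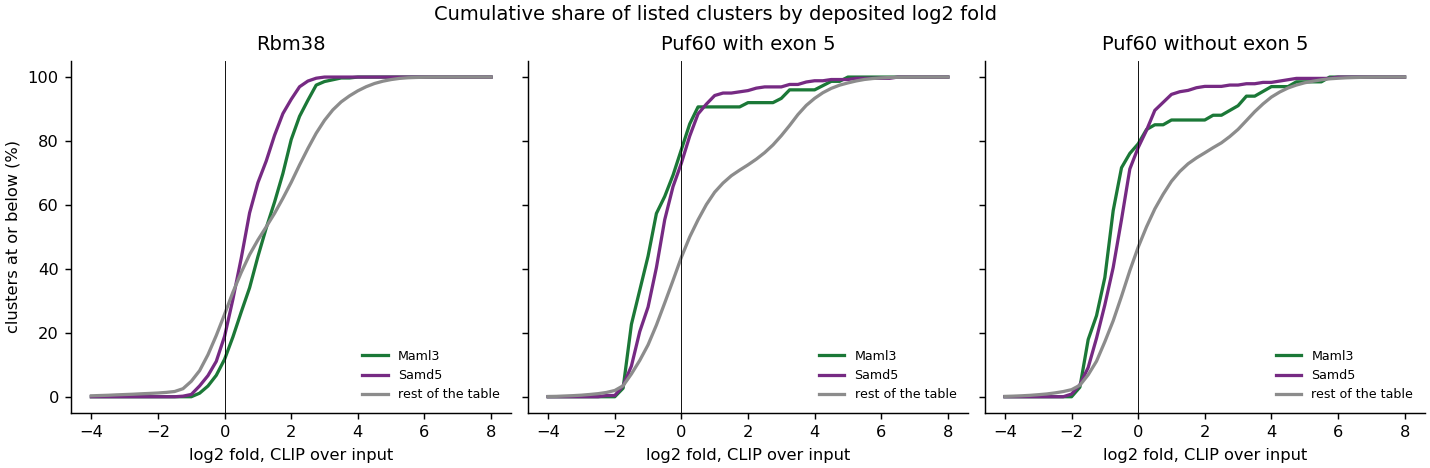
Cumulative share of listed clusters (%, vertical) at or below each deposited log2 fold of CLIP over input (horizontal), in 1 panel per protein, for Maml3, Samd5 and the rest of the table. At a log2 fold of 0 the Puf60 curves of Maml3 and Samd5 had reached 73.1% to 79.1%, while for Rbm38 they had reached 11.7% and 18.9%.

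The highest Puf60 folds exceeded those of every Rbm38 cluster of the same gene. In the authors' deposited tables, 5 enriched Maml3 clusters of Rbm38, 5 of Puf60 with exon 5 and 6 of Puf60 without exon 5 had a log2 fold above 3. For Samd5 the deposited tables give 0, 8 and 6 such clusters. The median log2 fold of enriched clusters in the authors' deposited tables was 1.85, 3.20 and 3.13 in Maml3 for Rbm38, Puf60 with exon 5 and Puf60 without exon 5. In Samd5 it was 1.51, 1.74 and 1.64 in the same deposited tables. Over all enriched clusters it was 2.33, 2.89 and 2.80, so Puf60 was also higher over the whole tables. Both genes were below this for Rbm38, and for Puf60 Samd5 was below it and Maml3 above it. Of listed clusters, 98.6%, 93.3% and 91.0% in Maml3 and 100%, 96.9% and 97.5% in Samd5 were at or below 3. In the rest of each table it was 86.5%, 81.7% and 83.6%. Of the 24 enriched Samd5 clusters of Puf60 with exon 5, 15 also had a log2 fold above 1 in the authors' deposited table, a rule that 12646 of the 36227 clusters of that whole table met.

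Along both genes the clusters were concentrated toward the 5′ end. In 10 equal parts of the Maml3 gene body from its 5′ end, the Rbm38 table lists 150, 92, 63, 26, 6, 4, 11, 3, 2 and 1 clusters. The Puf60 tables had fewer and fell away in the same way, with 34, 19 and 8 in the first parts with exon 5 and 30, 14 and 7 without exon 5. In Samd5 the Rbm38 counts were 165, 123, 98, 71, 47, 25, 15, 4, 1 and 11, a slower decline with a small return in the last part. The Puf60 counts in Samd5 began with 84, 76 and 32 with exon 5 and with 87, 66 and 25 without exon 5. The rule that chose the genes used only the Rbm38 table. Of the Puf60 clusters counted here 73.1% to 79.1% had a log2 fold below 0, so their profiles are mostly not those of enriched sites.

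**Figure D2:**
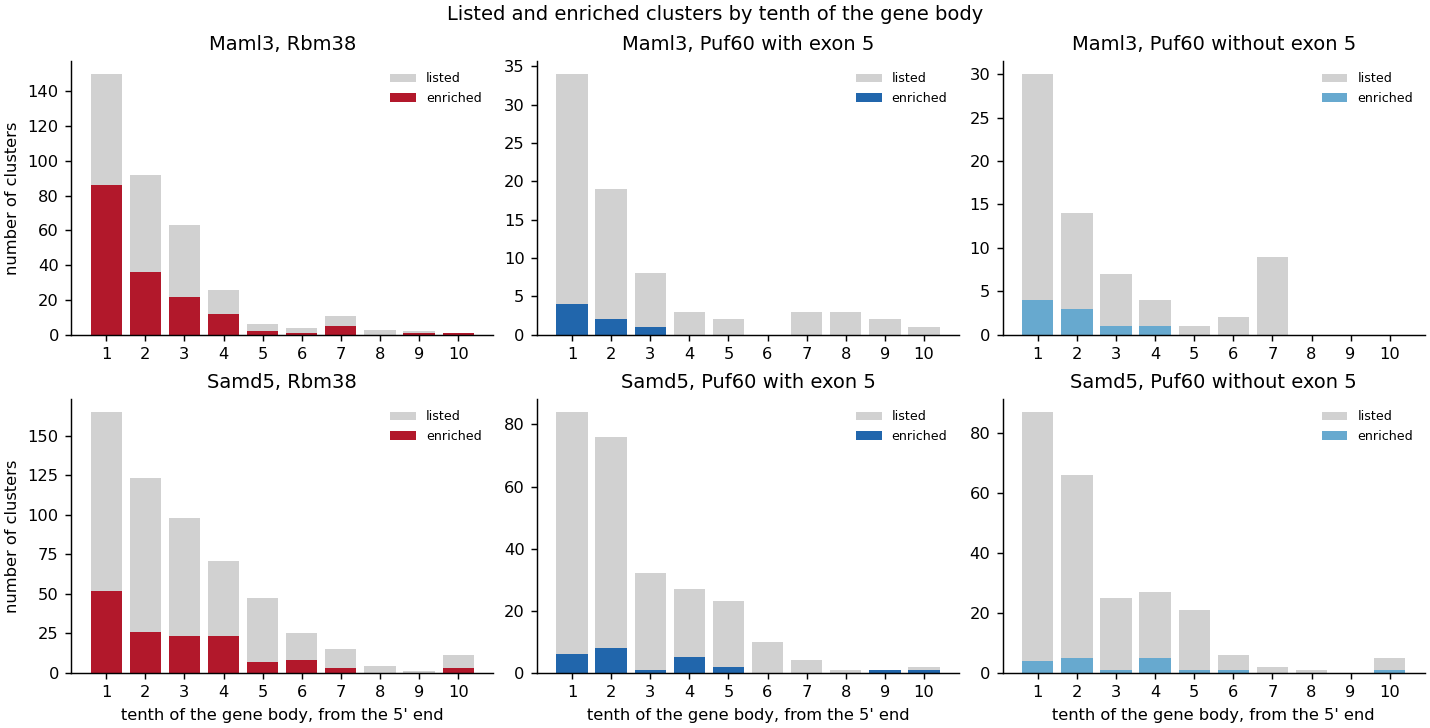
Number of listed (grey) and enriched (coloured) clusters on the gene's strand in each of 10 equal parts of the Maml3 and Samd5 gene bodies, from the 5′ end, for the 3 proteins, with a vertical scale of its own in each panel. In every panel the first part holds the largest number of listed clusters.

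The first 20% of the Maml3 gene body held 67.6% of its listed Rbm38 clusters, 70.7% of those of Puf60 with exon 5 and 65.7% of those of Puf60 without exon 5. In Samd5 it held 51.4%, 61.5% and 63.8%. This share varied widely among long genes with many clusters. Among the 34 protein-coding genes of at least 100 kb with at least 50 listed Rbm38 clusters, Maml3 ranked 7th and Samd5 15th by this share, whose median was 37.8% (quartiles 4.62% and 64.7%). They ranked 3rd and 5th of 14 such genes for Puf60 with exon 5, and 3rd and 4th of 10 for Puf60 without exon 5. Of enriched clusters, 122 of 166 (73.5%) Rbm38 clusters of Maml3 and 78 of 145 (53.8%) of Samd5 lay in the first 20% of the gene body. In the other protein-coding genes of 300 to 550 kb, 41.6% of enriched Rbm38 clusters lay there.

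The Rbm38 fold also differed along the genes. In the authors' deposited table, its median log2 fold was 1.33, 1.08, 0.88 and 1.12 in the first 4 parts of Maml3 and -0.10 and -0.24 in the next pair. In Samd5 the deposited medians were 0.94, 0.46, 0.72, 0.53, 0.21, 0.11 and 0.06 over the first 7 parts. Among the parts with 25 or more listed Rbm38 clusters, the median was highest in the first in both genes. The 11 clusters in the 7th part of Maml3 had a median of 1.56 in the deposited table. The longest stretch of Maml3 without a listed Rbm38 cluster was 72100 nt, from 345.4 to 417.5 kb from the 5′ end, and that of Samd5 was 48350 nt. Without exon 5, Puf60 had no listed cluster over the last 132116 nt of Maml3.

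**Figure D3:**
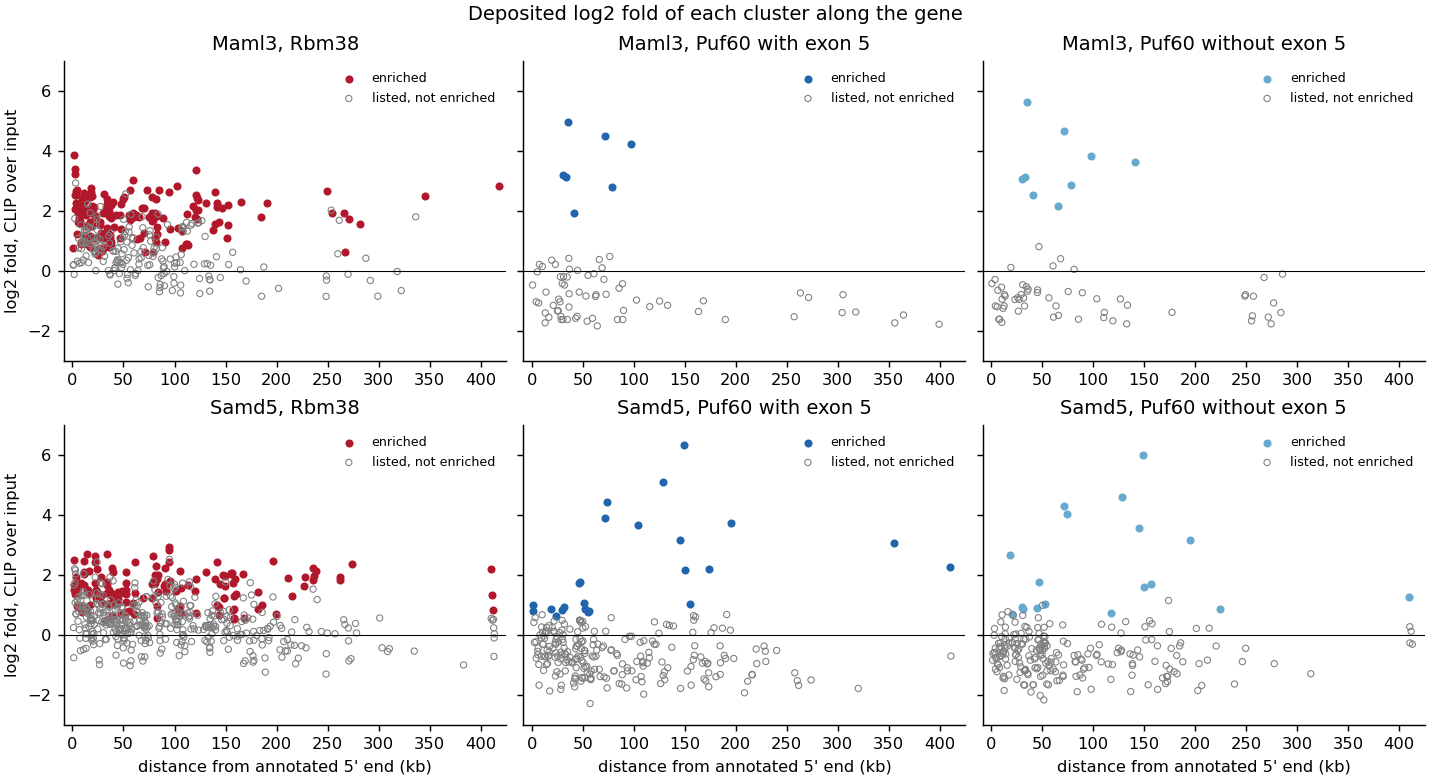
Deposited log2 fold of CLIP over input (vertical) of each listed cluster against its distance from the annotated 5′ end in kb (horizontal), for Maml3 and Samd5 and the 3 proteins. Filled points are enriched and open points are not. Enriched Rbm38 points crowd the 5′ side with a log2 fold of at most 3.87, and the few enriched Puf60 points reach 6.35.

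The cluster of highest Rbm38 fold in Maml3 lay close to the gene's start. It was at chr3:52103286-52103535, 1.91 kb from the 5′ end, with a log2 fold of 3.87 and an adjusted p of 3.19e-126 by the authors' deposited table. Next to it, chr3:52102536-52102935 was the longest Maml3 cluster at 400 nt and had a log2 fold of 3.41 in the deposited table. Together with chr3:52103086-52103135, at 3.23 in the authors' deposited table, they belonged to the window chr3:52101386-52103535, in which 11 clusters covered 1650 nt and 9 were enriched. The other 2 among the 5 highest were chr3:51984136-51984235, 121 kb into the gene at 3.37, and chr3:52045936-52046035, at 3.03, in the authors' deposited table. The window with the most clusters, 12 listed and 8 enriched, was chr3:52067636-52069535. The lowest Rbm38 fold in Maml3 was -0.85, at chr3:51856786-51856835, in the deposited table.

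Rbm38 clusters in Samd5 reached lower folds and were more spread out. The highest, chr10:9581686-9581735 and chr10:9581236-9581335, lay 94 to 95 kb into the gene, where the authors' deposited table gives log2 folds of 2.95 and 2.83. Then came chr10:9661736-9661885 and chr10:9641786-9641835, both at 2.69, and chr10:9653736-9653835, at 2.65 in the authors' deposited table. The densest window of Samd5, unlike that of Maml3, was at the gene's start, with 13 clusters, 5 of them enriched, at chr10:9672236-9674235. A window at chr10:9603536-9605535 held 12 listed Rbm38 clusters and 0 enriched ones, so dense listing did not always come with enrichment. The longest Samd5 cluster was chr10:9628236-9628535, 300 nt, with a log2 fold of 1.40 in the deposited table.

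The Puf60 clusters of highest fold in each gene were enriched with both isoforms. In Maml3 the cluster at chr3:52069686-52069735 had a log2 fold of 1.18 for Rbm38, with an adjusted p of 1, 4.97 for Puf60 with exon 5 and 5.64 for Puf60 without exon 5 by the authors' deposited tables. At chr3:52033286-52033385 the Rbm38 table lists no cluster, and Puf60 had 4.49 with exon 5 and, over the 50 nt of lower coordinate, 4.67 without it in the authors' deposited tables. At chr3:52007436-52007535 an overlapping Rbm38 cluster had -0.66, Puf60 with exon 5 had 4.23 and, over the 50 nt of higher coordinate, Puf60 without exon 5 had 3.83 in the deposited tables. Enriched Puf60 clusters of Maml3 lay between 30 and 141 kb from the 5′ end. In the first 20 kb, 49 of 80 Rbm38 clusters were enriched. For Puf60 it was 0 of 11 listed clusters with exon 5 and 0 of 15 without it, and at such small numbers a count of 0 says little.

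In Samd5 the strongest Puf60 site was chr10:9526386-9526485, about 149 kb into the gene. Its log2 fold was 0.09 for Rbm38, 6.35 for Puf60 with exon 5 and 5.99 for Puf60 without exon 5 in the authors' deposited tables. Next came chr10:9547236-9547435, which had an overlapping Rbm38 cluster at 0.18, while Puf60 had 5.10 with exon 5 over chr10:9547286-9547385 and 4.61 without exon 5 over the whole stretch in the deposited tables. At chr10:9601636-9601685 the deposited tables give -0.11 for Rbm38, 4.44 with exon 5 and 4.04 without it. At chr10:9603836-9603885, inside the window crowded with unenriched Rbm38 clusters, Puf60 had 3.88 with exon 5 and 4.32 without it in the authors' deposited tables. At chr10:9480236-9480285 it had 3.74 with exon 5 and 3.16 without exon 5 in the deposited tables. At these 5 sites the isoforms were within 1 of each other on the log2 scale, and Rbm38, where listed, was near input.

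The isoforms shared a larger part of their enriched clusters in Maml3 than in Samd5, but of listed clusters a smaller part. Of the enriched Maml3 clusters, 6 of 7 with exon 5 (85.7%, against 64.2% over the whole table) overlapped an enriched cluster without exon 5 by at least 1 nt. In the other direction it was 6 of 9 (66.7%, against 63.7%). In Samd5 it was 9 of 24 with exon 5 (37.5%) and 9 of 18 without exon 5 (50%). The Maml3 shares rest on only 7 and 9 clusters. Over listed clusters the shares were 24.0% and 26.9% in Maml3, against 28.1% and 30.4% in Samd5. The 5 clusters of highest fold with exon 5 in Samd5 were among the shared ones, and 13 of the 24 clusters of Puf60 with exon 5 overlapped at least a listed cluster of the other isoform.

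Few enriched Rbm38 clusters of these genes overlapped an enriched Puf60 cluster, while the shares counted from Puf60 were near those of its whole tables. Of the 166 enriched Rbm38 clusters of Maml3, 2 overlapped an enriched cluster of Puf60 with exon 5 (1.20%, against 12.4% over the whole table) and 2 one of Puf60 without exon 5 (1.20%, against 11.5%). Of the 145 in Samd5 the overlap was 6 with exon 5 (4.14%) and 3 without exon 5 (2.07%). Seen from Puf60, 2 of 7 Maml3 and 6 of 24 Samd5 clusters with exon 5 overlapped an enriched Rbm38 cluster (28.6% and 25%), against 22.2% over the whole table. Without exon 5 it was 2 of 9 in Maml3 and 3 of 18 in Samd5 (22.2% and 16.7%), against 20.0%. The low Rbm38 shares come with 166 and 145 Rbm38 clusters set against at most 24 of Puf60. Of the 10 enriched Rbm38 clusters of highest fold in Maml3, 0 overlapped a listed cluster of Puf60 with exon 5 and 1 a listed cluster of Puf60 without exon 5, which had -0.29 in the deposited table.

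Where a cluster of 1 table could be matched to 1 of another, each being the other's largest overlap, Rbm38 mostly had the higher fold. In Maml3 it was higher at 24 of 28 clusters matched with Puf60 with exon 5, with a median difference of 1.46, and at 19 of 23 matched with Puf60 without exon 5, with a median difference of 1.60, on the log2 scale of the authors' deposited tables. In Samd5 it was higher at 91 of 107 (median difference 1.29) and at 99 of 113 (1.35) in the deposited tables. Over all listed clusters the deposited median was also higher for Rbm38, at 1.04 against 0.24 with exon 5 and 0.11 without it. Matched clusters of other genes were not compared, so these differences are not shown to be particular to Maml3 and Samd5. The folds of the matched clusters were nearly unrelated between Rbm38 and Puf60. Pearson's r was -0.19 and 0.01 over the 28 and 23 Maml3 clusters, and 0.02 and 0.03 over the 107 and 113 Samd5 clusters. Between the isoforms it was 0.96 (Spearman's rho 0.79) over 18 Maml3 clusters and 0.90 (rho 0.63) over 73 Samd5 clusters. These points share a transcript and their libraries, so the coefficients describe them only.

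The fold with exon 5 minus that without it had a median of -0.03 over the 18 matched Maml3 clusters, and 17 of them differed by less than 1 on the log2 scale of the deposited tables. In Samd5 the median was 0.28 over 73 matched clusters, of which 63 differed by less than 1 in the deposited tables. Of these 73, 9 were enriched for both isoforms, 4 only with exon 5 and 1 only without exon 5. Whether the isoforms differed at any of these sites was not tested, since the deposited tables hold no spread between replicates.

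At 9 places in Maml3 and 45 in Samd5 all 3 tables had a matched cluster. At the 9 in Maml3 the median log2 fold was 1.10 for Rbm38, 0.36 for Puf60 with exon 5 and -0.46 for Puf60 without exon 5 in the authors' deposited tables, and Rbm38 was highest at 6. At the 45 in Samd5 the deposited medians were 1.05, -0.13 and -0.39, and Rbm38 was highest at 37. Only 2 of these matched places were enriched in all 3 tables, both in Maml3. At chr3:52071286-52071335 the authors' deposited tables give 1.93 for Rbm38, 3.12 for Puf60 with exon 5 and 3.13 for Puf60 without exon 5. At chr3:52026836-52026885 they give 0.64, 2.79 and 2.87 in the deposited tables. Of the 45 places in Samd5, 22 were enriched for Rbm38, 6 for Puf60 with exon 5 and 4 without exon 5.

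The long Rbm38 cluster of Samd5 at chr10:9628236-9628535 held both patterns side by side. Its first 50 nt by coordinate, chr10:9628236-9628285, held an enriched cluster of both isoforms, at 1.76 with exon 5 and 1.78 without it in the authors' deposited tables. The cluster of Puf60 with exon 5 that overlapped it most, chr10:9628336-9628485, was at -0.13 in the deposited table. A cluster near the other end of Samd5, chr10:9265786-9265885, was enriched with exon 5 at 2.26 and, at chr10:9265736-9265835, without exon 5 at 1.28 in the authors' deposited tables.

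**Figure D4:**
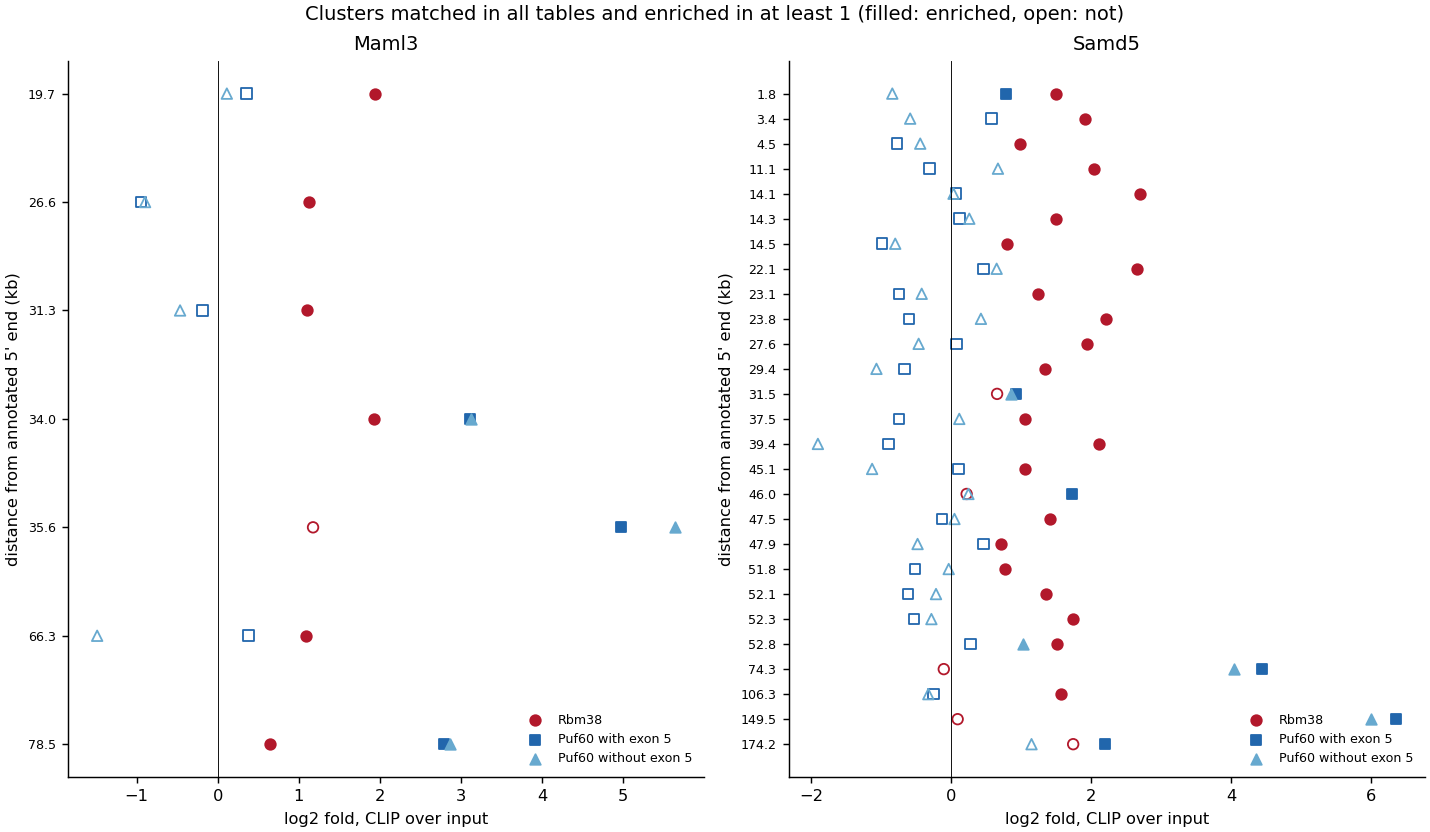
Deposited log2 fold of CLIP over input (horizontal) for Rbm38 (circles), Puf60 with exon 5 (squares) and Puf60 without exon 5 (triangles) at the places where all 3 tables had a matched cluster and at least 1 was enriched, 7 in Maml3 and 27 in Samd5, by distance from the 5′ end in kb (vertical, evenly spaced rows). Filled symbols are enriched. At most places the filled circle stands to the right of open Puf60 symbols, and at a few the Puf60 symbols lie far to its right, up to 6.35.

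A small p-value did not always bring a small adjusted p, and in the Rbm38 table this was more frequent in Maml3 and Samd5 than over the table as a whole. By the Benjamini-Hochberg method over the deposited p-values, 264 Rbm38 clusters of Maml3 (73.7%) and 317 of Samd5 (56.6%) would be enriched, against 62.0% of the table. The deposited adjusted p called 166 and 145. The 98 and 172 clusters called by the first and not by the second all had an adjusted p of exactly 1. Clusters with a p-value under 0.05 and an adjusted p of 1 were 103 of Maml3 (28.8%) and 188 of Samd5 (33.6%), against 11.8% of the table. For Puf60 with exon 5 they numbered 0 and 5 (5.01% of the table) and without exon 5 they numbered 1 and 3 (4.29% of the table). By Benjamini-Hochberg, Puf60 with exon 5 would have 7 enriched clusters in Maml3 and 26 in Samd5 (43.1% of the table), and Puf60 without exon 5 10 and 21 (39.3% of the table).

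Some of these clusters had high folds. In Maml3 the authors' deposited table gives a log2 fold of 2.93, a p-value of 3.81e-86 and an adjusted p of 1 at chr3:52102186-52102335, in the dense window at the gene's start. At chr3:52053036-52053135 the deposited log2 fold was 2.57, also with an adjusted p of 1. In Samd5, chr10:9580836-9580885 at 2.52 and chr10:9651736-9651785 at 2.43 in the authors' deposited table had an adjusted p of 1. The sources used here do not give the criterion by which the adjusted p was set to 1.

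Among Rbm38 clusters with a p-value under 0.05, an adjusted p of 1 stood at 103 of 269 in Maml3 (38.3%), 188 of 334 in Samd5 (56.3%) and 5476 of 30373 in the rest of the table (18.0%). At log2 folds of 1 to 1.5 in the deposited table it stood at 54.1% in Maml3, 50.6% in Samd5 and 31.1% in the rest. At folds of 2 to 3 it was 5 of 65 (7.69%), 6 of 39 (15.4%) and 182 of 9380 (1.94%) in the deposited table. Clusters of like fold thus got an adjusted p of 1 more often in these genes than in the rest of the table. The share also grew with crowding in other protein-coding genes. It was 7.03% in genes with 1 to 4 listed Rbm38 clusters, 10.6% with 5 to 19, 24.2% with 20 to 99 and 36.9% in the 17 other genes with 100 or more. Maml3, at 38.3%, was thus near the other most crowded genes, and Samd5, at 56.3%, above them. The number of enriched Rbm38 clusters in Maml3 and Samd5 depends on this criterion.

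**Figure D5:**
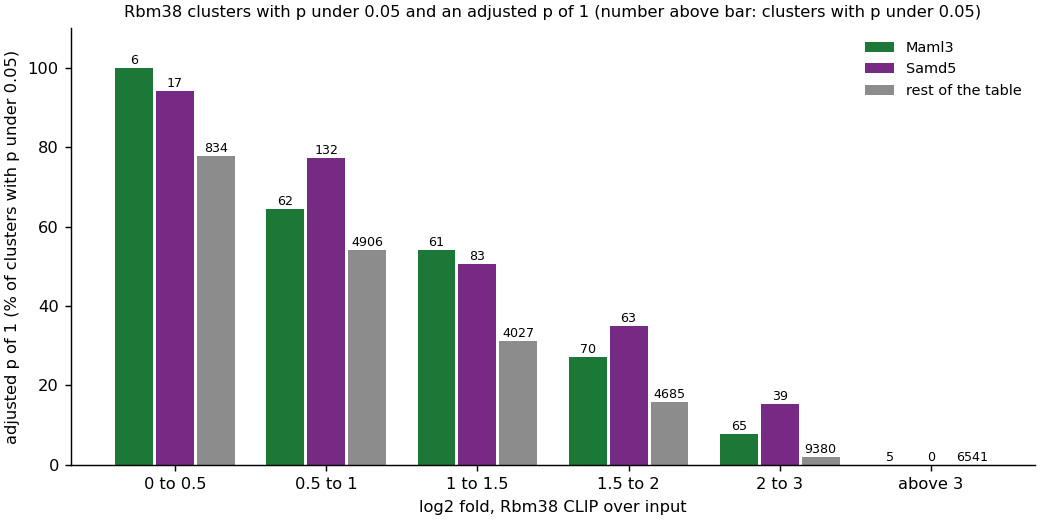
Share of Rbm38 clusters with a p-value under 0.05 whose deposited adjusted p is 1 (%, vertical), by class of deposited log2 fold (horizontal), for Maml3, Samd5 and the rest of the table, with the number of clusters above each bar. The bars of Maml3 and Samd5 stand above the bar of the rest in each class up to a log2 fold of 3, and above it Samd5 had no cluster and the others are at or near 0.

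Few enriched clusters of these genes lay at the 3′ end, where Rbm38 clusters of other genes were frequent. Over protein-coding genes 7362 of 16861 enriched Rbm38 clusters (43.7%) lay within 2000 nt of the annotated 3′ end, and in the other protein-coding genes of 300 to 550 kb 56 of 685 did (8.18%). In Maml3 it was 1 of 166, chr3:51687736-51687785, with a log2 fold of 2.84 by the authors' deposited table. In Samd5 it was 1 of 145, and 0 of the enriched Puf60 clusters of either gene lay there. Over protein-coding genes 15.1% of enriched clusters of Puf60 with exon 5 and 15.2% of those without exon 5 lay in this stretch, and in the other genes of 300 to 550 kb 1.59% and 2.10%, so that a count of 0 among at most 24 clusters says little. Each gene thus had a single enriched Rbm38 cluster near its annotated end.

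Clusters on Samd5's strand went on past its annotated 3′ end. The Rbm38 table lists 24, 17, 15, 9, 12, 9, 4, 4, 3 and 1 clusters in 10 successive steps of 20 kb beyond the end, against 10 in the last 20 kb of the gene itself. Over these 200 kb 98 Rbm38 clusters were listed and 15 enriched, against 52 and 10 for Puf60 with exon 5 and 37 and 10 for Puf60 without exon 5. All 3 proteins had a listed cluster in each of the 10 steps. The nearest annotated gene in that direction is the long noncoding RNA gene Gm51794, 234 kb away and on the other strand, and Sash1, a SAM domain gene, lies 317 kb away. Neither had a listed cluster in any table. Whether these clusters belong to the Samd5 transcript was not tested.

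Past the 3′ end of Maml3 the clusters were fewer and mostly farther away. Over 200 kb 8 Rbm38 clusters were listed and 5 enriched, against 7 and 4 for Puf60 with exon 5 and 11 and 5 for Puf60 without exon 5, each in 4 of the 10 steps. At 160 to 180 kb a cluster of Puf60 with exon 5 reached 6.61 in the deposited table. Whether these clusters belong to the Maml3 transcript was not tested. In the first 20 kb past its 3′ end the tables list 1 Rbm38 cluster, enriched at 0.88 in the deposited table, and 0 of either isoform. In the 20 kb upstream of the annotated 5′ end, all 3 tables list 0 clusters on the gene's strand for both Maml3 and Samd5, against 80 Rbm38 clusters in the first 20 kb of Maml3 and 83 in those of Samd5. The clusters thus began within the annotated gene. Of the neighbours, Mgst2, a glutathione transferase gene 4.6 kb beyond the 3′ end of Maml3, had 1 Rbm38 cluster, which was enriched, and the annotated genes Gm30074, Olfr1398-ps1, Gm38247, Gm6150 and Gm31471 had 0.

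On the opposite strand the tables list few clusters. In Maml3 there were 4 for Rbm38, of which 3 were enriched, at 3.18, 3.47 and 3.26 in the authors' deposited table, all of 50 nt. In Samd5 there was 1 for each isoform of Puf60, at chr10:9624351-9624400, enriched at 3.32 with exon 5 and 3.23 without it in the deposited tables, and 0 for Rbm38. The strand of a cluster was inferred, and whether these few were placed on the wrong strand was not tested. Genes nested in Maml3 or Samd5 added at most 3 listed clusters to any table and 0 enriched ones.

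Among all genes the pair stood near the top for Rbm38 by the rule that chose them. With 640 listed clusters Pcbp3 was first, Samd5 second and Maml3 3rd of the 8603 genes with any. In the Puf60 tables, which were not used to choose them, Samd5 ranked 2nd of 7717 genes by listed clusters with exon 5 and 1st of 7961 without it. Maml3 ranked 16th and 15th. By enriched clusters Samd5 ranked 31st and 70th, and Maml3 329th and 225th, of 4318 genes with exon 5 and 4283 genes without exon 5. Most genes of like length had few clusters. Of 275 protein-coding genes of 300 to 550 kb, the median number listed was 0 for every protein, and the largest number in another gene was 222 for Rbm38 (Gse1), 143 for Puf60 with exon 5 and 188 without it (both Unc5c, a netrin receptor gene).

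The genes most like each in listed and enriched counts over the 3 tables, by Euclidean distance over 6 log2 counts among 375 genes, were other cluster-rich genes. For Maml3 they were Rere, a nuclear corepressor gene (distance 1.66), Gse1 (1.72) and Aopep, an aminopeptidase gene (2.08). Rere had 88 of 202 Rbm38 clusters enriched, 12 of 54 for Puf60 with exon 5 and 8 of 40 for Puf60 without it. For Samd5 they were Map1b, a microtubule-associated protein gene (1.19), Ankrd11, a chromatin regulator gene (1.40), and Efna5, an ephrin gene (1.8). Map1b had 141 of 277 Rbm38 clusters enriched, 19 of 185 for Puf60 with exon 5 and 20 of 216 for Puf60 without it. The distance was taken over these same counts, so a likeness in listed and enriched clusters follows from the choice.

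Maml3, chosen by its Rbm38 clusters, held most of those of a Notch list but not the most enriched Puf60 clusters. Of the list's 60 genes, 33 had a listed Rbm38 cluster and 29 of these an enriched one (87.9%), against 83.4% of all protein-coding genes with a listed cluster. For Puf60 it was 16 of 25 with exon 5 (64.0%, against 63.9%) and 18 of 26 without exon 5 (69.2%, against 62.0%). Maml3 held 166 of the list's 274 enriched Rbm38 clusters. Adam10, whose protease cuts the Notch receptor, and Mib1, a ubiquitin ligase gene of Notch ligands, had 8 each. Dtx3, a ubiquitin ligase gene named after its values were seen and given no strand here, had 0 of 8 Rbm38 clusters enriched, 10 of 10 of Puf60 with exon 5 and 11 of 12 of Puf60 without exon 5, against 7 and 9 enriched Puf60 clusters in Maml3.

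The acetyltransferase genes Ep300 and Crebbp and the kinase gene Cdk8 were enriched in all 3 tables, with 5, 1 and 7 enriched Rbm38 clusters. So were the corepressor genes Ncor1 and Hdac2, the ubiquitin ligase genes Mib2 and Neurl1b, and Numb, an inhibitor of Notch. Named after their values were seen, the other Mastermind genes Maml1 and Maml2 and the receptor gene Notch1 had 0 listed clusters in every table, and Rbpj had 5 of 5 Rbm38 clusters enriched and 1 listed, unenriched cluster in each Puf60 table. The median over genes of the gene's median log2 fold in the authors' deposited tables was 1.93 for Rbm38 (1.81 over all protein-coding genes with a listed cluster), -0.03 with exon 5 (0.41) and 0.93 without exon 5 (0.21).

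Samd5 likewise held most of the enriched Rbm38 clusters among SAM domain genes. Of 44 genes of that list found in the annotation, 15 had a listed Rbm38 cluster and 11 an enriched one (73.3%, against 83.4%). With exon 5 it was 13 of 14 (92.9%, against 63.9%), and without exon 5 11 of 14 (78.6%, against 62.0%). Samd5 held 145 of the list's 180 enriched Rbm38 clusters. After it came Samd8, a sphingolipid enzyme gene, with 15, and Inppl1, a phosphoinositide phosphatase gene, and Stim1, a calcium sensor gene, with 5 each. Samd8 had 0 enriched among 5 Puf60 clusters with exon 5 and 16 without it. Epha4, Inppl1, Samd1, Samd5, Shank1 and Stim2 were enriched in all 3 tables.

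The medians of Samd5 were below those of the list. The single cluster of the ephrin receptor gene Epha4 in each table, for one, was at 2.92 for Rbm38, 5.55 with exon 5 and 4.59 without it in the authors' deposited tables. The median of the gene medians over the list was 2.16 for Rbm38 (1.81 over all genes), 3.44 with exon 5 (0.41) and 2.54 without exon 5 (0.21) in the deposited tables, while that of Samd5 itself was 0.62, -0.61 and -0.63. Most other genes of the list with a listed Puf60 cluster had only 1 or 2 in a table. Samd8, with 5 and 16 Puf60 clusters, had medians of -0.57 with exon 5 and -0.54 without it. Samd4 had -0.85 over 9 clusters with exon 5 and 1.66 over 2 without it.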

How the data were processed

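iCLIP libraries of Flag-tagged proteins from N2A cells were compared with size-matched inputs. The deposited tables, 1 for each protein, hold the authors' log2 fold (read here as CLIP over input) and their p-value, raw and adjusted, for each cluster, per the file headers. The submitters' processing notes name TopHat, edgeR, NCBIM37 and mm10, with no role given. How clusters were called, reads collapsed and libraries combined is not given in the sources used here. Tests planned on the libraries' own values could not be run on tables of comparisons. Totals per library, and so depth, are unknown. The titles of the CLIP libraries carry the letters BR with a number, and whether replicates came from separate cultures is not stated. The deposited p-values may thus measure technical spread alone, or no spread between libraries.

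Cluster starts modulo 50 nt were 0 (read as plus) or 35 (minus), so the strand is inferred. Coordinates are printed 1-based on mm10. Gene bodies came from RefSeq (GRCm38.p6, the same build), with 49993 genes, 27024 of them with an annotated strand; a gene without one counts clusters of both strands in ranks. Enriched means a deposited adjusted p under 0.05. Overlap needed 1 nt on the same strand. Alternatives were a threshold of 0.01, Benjamini-Hochberg over the deposited p, both strands, any overlap with the gene, a log2 fold above 1, length weighting, 50% overlap, all listed clusters, covered bases and, added after seeing the data, leaving out nested genes. The scripts (Python 3.11.15, pandas 2.3.3, numpy 2.4.6, scipy 1.17.1, matplotlib 3.10.9) were tested on simulated data.

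The genes and gene lists were chosen with earlier results of these data known. Named by rule were, per gene and table, the 5 enriched clusters of highest log2 fold, the highest, lowest and longest listed cluster, clusters matched in all 3 tables, the longest gaps and densest windows of 2000 nt, the 2 neighbours on each side, the 3 genes of most similar counts among those with at least 50 listed clusters, and list genes enriched in all 3 tables or with the 4 largest Rbm38 counts. Some results that this rule names are not reported here. Further clusters and genes in the text were chosen after their values were seen. No sequence is printed, since no genome was used here.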

Additional observations from a re-analysis of the deposited data

How the results depend on the processing

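By Benjamini-Hochberg over the deposited p-values, the enriched Rbm38 clusters numbered 264 in Maml3 (166 by the deposited adjusted p) and 317 in Samd5 (145), because clusters with an adjusted p of 1 then count. The 4 Puf60 counts stayed within 1.5 times. Requiring a log2 fold above 1 left 15 of 24 enriched Samd5 clusters of Puf60 with exon 5 and changed the other 5 counts by at most 1.5 times (12 of 18 in Samd5 for Puf60 without exon 5). By covered bases, 62.1% of enriched Rbm38 sequence in Samd5 lay in the first 20% of the gene body, against 53.8% of clusters, and 36% for Puf60 without exon 5, against 50% of clusters.

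Over all listed clusters in place of enriched ones, the shares overlapping changed most. In Maml3 they were 24.0% for Puf60 with exon 5 on Puf60 without it (85.7% of enriched), 26.9% the other way (66.7%), 7.82% for Rbm38 on Puf60 with exon 5 and 6.42% on Puf60 without it (1.20% each). In Samd5 they were 47.9% for Puf60 without exon 5 on Rbm38 (16.7%), 19.1% for Rbm38 on Puf60 with exon 5 (4.14%) and 20.2% on Puf60 without it (2.07%). The other 5 shares stayed within the 95% Wilson interval of the reported share, which is wide at these counts. They were 42.3% for Puf60 with exon 5 on Rbm38 in Samd5 (25%), 37.3% (28.6%) and 34.3% (22.2%) for Puf60 with and without exon 5 on Rbm38 in Maml3, and 28.1% (37.5%) and 30.4% (50%) between the isoforms in Samd5. The cause was not tested. With 50% overlap of both clusters, the Samd5 shares were 12.5% for Puf60 with exon 5 on Rbm38 (25%), 2.07% the other way (4.14%), 11.1% for Puf60 without exon 5 on Rbm38 (16.7%) and 1.38% the other way (2.07%), and the other 8 shares were identical. A threshold of 0.01, both strands, any overlap with the gene, length weighting and nested genes left out (6 values each) left their values within 1.5 times of those reported.

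Leaving out each replicate, other normalizations and filters on low counts were not run, since the tables hold no value per library. No paired analysis was possible because the tables hold no value per library. Depth and read numbers per cluster are unknown, which limits all statements on small folds.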
